A study of Mus musculus with 30 samples.

Results

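Pyruvate dehydrogenase, its kinases and its phosphatases were followed in 4 tissues of *Mtm1*-/y mice and their WT littermates. The genes were chosen by symbol: 10 of the 36103 genes counted are *Pdha1*, *Pdhb*, *Dlat*, *Pdhx*, *Pdk1*, *Pdk2*, *Pdk3*, *Pdk4*, *Pdp1* and *Pdp2*. The animals were males on a pure 129Pas background, studied at 5 weeks of age. *Mtm1*-/y mice carry a body-wide knock-out of *Mtm1*, which encodes the phosphoinositide phosphatase myotubularin, so the 4 tissues share it. The libraries came from the gastrocnemius, a fast muscle of the lower leg (4 WT and 4 *Mtm1*-/y), the diaphragm (4 and 3), the heart (4 and 4) and the liver (3 and 4).

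The pyruvate dehydrogenase complex sits in the mitochondrial matrix and turns pyruvate, the end product of glycolysis, into acetyl-CoA for the citric acid cycle. Its E1 component, a tetramer of alpha and beta subunits, is switched off when a pyruvate dehydrogenase kinase phosphorylates the alpha subunit, and on again when a phosphatase removes the phosphate. In striated muscle and heart the kinases are known to spare carbohydrate during fasting, when fatty acids are burnt instead, and *Pdk4* is the kinase best known for rising with fasting.

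Levels are given in CPM, the usual read count scaled for library depth, with TMM factors over all 30 libraries, and each library had 24873817 to 44289343 counts. Values of different genes are compared only in RPKM, the same CPM divided by the exon length in kilobases. Log2 fold changes (log2FC) compare *Mtm1*-/y with WT within 1 tissue and carry their standard error (SE). A gene passed the test at an adjusted p under 0.05 from edgeR's quasi-likelihood test, with Benjamini-Hochberg adjustment over all genes tested in that comparison, and every adjusted p below comes from this test unless DESeq2 is named. All 10 genes passed the filter on low counts in every comparison. The study's methods count as many mice as libraries in each group, and the p-values measure the spread between these libraries.

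The *Mtm1* transcript itself had a log2FC of -2.07 (adjusted p = 2.07e-05) in the gastrocnemius, -2.26 (adjusted p = 0.027) in the diaphragm, -2.59 (adjusted p = 2.64e-05) in the heart and -1.60 (adjusted p = 0.37) in the liver, and no *Mtm1*-/y library overlapped a WT library in any tissue. Each tissue carried its own markers: *Alb*, made by hepatocytes, reached 110100 to 153800 CPM in liver, *Myh6*, the cardiac myosin, 17620 to 23460 CPM in heart, and *Myh4*, the fastest limb myosin, 26040 to 69980 CPM in gastrocnemius. The diaphragm libraries also held transcripts of hepatocytes. *Alb* stood at 22990, 15620, 252 and 16630 CPM in the WT and at 1491, 28580 and 480.3 CPM in the *Mtm1*-/y diaphragm libraries, so 4 of the 7 exceeded 10000 CPM. In the heart, WT library 4 stood apart by atrial transcripts, with *Nppa* at 16040 CPM against 124.6 to 2626 CPM in the other heart libraries. *Myl7*, also an atrial transcript, stood at 711.5, 39.11, 600.1 and 4172 CPM in WT and 4.12, 1082, 1.11 and 8.16 CPM in *Mtm1*-/y heart. For both transcripts every *Mtm1*-/y heart library except library 2 lay below all WT libraries. The part of atrial content in the heart genotype effects was not tested.

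Promoter stretches of 3 genes are shown because *Pdha1* and *Pdk2* had the largest falls of the *Mtm1*-/y gastrocnemius among the 10 genes and *Pdk4* the largest WT difference between muscle and liver among the kinases. RefSeq (GRCm38.p6) holds a promoter window of 300 bases, 250 before and 50 after the start, for 9 of the 10 genes, and *Pdp1* has no entry. *Pdk1* and *Pdk2* have 2 windows each, and only the window nearest the GENCODE start was used. The bases before the start that RefSeq and GENCODE place furthest upstream are printed 5′ to 3′ on the gene's own strand, the minus strand for all 3, with motif letters in capitals. The *Pdha1* stretch is chrX:160138431-160138680, that of *Pdk2* is chr11:95041372-95041621 and that of *Pdk4* is chr6:5496310-5496528.
Pdha1: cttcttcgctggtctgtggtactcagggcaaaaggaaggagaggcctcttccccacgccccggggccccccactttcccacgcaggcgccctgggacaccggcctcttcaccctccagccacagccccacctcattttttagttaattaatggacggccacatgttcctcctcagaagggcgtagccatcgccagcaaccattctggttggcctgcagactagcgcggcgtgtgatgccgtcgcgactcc
Pdk2: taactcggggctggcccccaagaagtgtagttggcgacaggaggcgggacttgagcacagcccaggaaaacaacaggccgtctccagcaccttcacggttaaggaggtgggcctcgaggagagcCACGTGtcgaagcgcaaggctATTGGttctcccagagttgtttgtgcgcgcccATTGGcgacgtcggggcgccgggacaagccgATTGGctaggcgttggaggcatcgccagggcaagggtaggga
Pdk4: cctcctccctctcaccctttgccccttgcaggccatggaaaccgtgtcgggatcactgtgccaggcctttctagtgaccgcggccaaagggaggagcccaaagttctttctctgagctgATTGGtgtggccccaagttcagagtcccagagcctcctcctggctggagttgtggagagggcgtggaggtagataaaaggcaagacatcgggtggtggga

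The capitals mark matches to 5 motifs searched on both strands in the whole 300-base windows. The half-site of oestrogen-related receptors was spelt AAGGTCA, and 4.72% of 32851 mouse promoter windows held it. The FOXO core was spelt GTAAACA (3.65% of windows), the core bound under hypoxia ACGTG (19.6%), the Sp1 box GGGCGG (35.7%) and the CCAAT box by its name (37.4%). The *Pdk2* window held the CCAAT box in reverse 3 times, and the hypoxia core on both strands at 1 overlapping place, whereas the *Pdk4* window held the CCAAT box in reverse once and the *Pdha1* window held no match. Of the other 6 windows, those of *Pdhb*, *Pdhx*, *Pdk3* and *Pdp2* held the CCAAT box and all 6 held the Sp1 box. The hypoxia core was also found in the windows of *Pdhb*, *Pdk3* and *Pdp2*, and not in the window of *Pdk1* that was used. The other window of *Pdk1* was not searched for the motifs. The receptor half-site and the FOXO core were found in none of the 9 windows. CpG pairs numbered 25 in the *Pdk2* window, 21 in that of *Pdha1* and 12 in that of *Pdk4*, beside a median of 7 over all windows.

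*Pdha1* encodes the E1 alpha subunit, the one that the kinases phosphorylate (ENSMUSG00000031299, mm10 chromosome X, 160122209 to 160138413, minus strand). In WT gastrocnemius it stood at 1114, 1108, 1206 and 1156 CPM, and in *Mtm1*-/y gastrocnemius at 740.1, 907.8, 726.1 and 724.4 CPM. All 4 *Mtm1*-/y libraries lay below all 4 WT libraries, and library 2 was the highest of them. *Pdha1* fell with a log2FC of -0.58 (SE 0.09, adjusted p = 0.0016). In whole muscle, fewer fibres of a type and less RNA per fibre cannot be told apart. Its exons share 603 bases with *Map3k15* on the opposite strand, and the strand setting of the counting is not given in the sources used here, but *Map3k15* had at most 1.63 CPM in any library.

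*Pdhb*, the E1 beta subunit, is on chromosome 14 (8165996 to 8173025). It ranged from 155.1 to 177.6 CPM in WT and from 130.4 to 151.9 CPM in *Mtm1*-/y gastrocnemius, without overlap. *Pdhb* had a log2FC of -0.27 (SE 0.07, adjusted p = 0.022), and without WT library 4 or *Mtm1*-/y library 1, 3 or 4 the adjusted p was 0.057 to 0.063 with a log2FC no closer to 0 than -0.23. It was the least changed of the 4 structural subunits.

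*Dlat* is the E2 core, the acetyltransferase that carries the lipoyl arms (chromosome 9, 50634633 to 50659780), and *Pdhx*, on chromosome 2 (103021075 to 103073513), is the protein that tethers E3 to that core. *Dlat* stood at 286.4 to 298.1 CPM in WT and 210.7 to 264.2 CPM in *Mtm1*-/y gastrocnemius, and it fell with a log2FC of -0.36 (SE 0.08, adjusted p = 0.0092). *Pdhx* stood at 139.2 to 149.3 CPM and at 102.3 to 129.2 CPM, and it fell with a log2FC of -0.40 (SE 0.08, adjusted p = 0.0070). Neither gene had a *Mtm1*-/y library within the WT range, and both stayed past the threshold whichever of the 8 libraries was left out. WT gastrocnemius was tight for both, with a coefficient of variation of 1.66% for *Dlat* and 3.09% for *Pdhx*, beside 7.98% for the median gene of at least 5 CPM.

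Of the 4 kinases 1 passed the test in the gastrocnemius. *Pdk2*, a kinase present in most tissues (chromosome 11, 95026258 to 95041354), stood at 578.5, 629.5, 585.1 and 668.7 CPM in WT gastrocnemius and at 426.8, 383.4, 378.8 and 437.4 CPM in *Mtm1*-/y gastrocnemius. The 2 groups lay far apart, with the highest *Mtm1*-/y library well under the lowest WT library. *Pdk2* fell with a log2FC of -0.62 (SE 0.08, adjusted p = 0.00057), the largest fall among the 10 genes.

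*Pdk4*, the kinase best known for its response to fasting (chromosome 6, 5483351 to 5496309), stood at 749.8, 557.5, 768.7 and 1510 CPM in WT gastrocnemius and at 1357, 1405, 1248 and 1404 CPM in *Mtm1*-/y gastrocnemius. Of the WT libraries 3 lay below every *Mtm1*-/y library and library 4 lay above every one of them. The log2FC was 0.58 (SE 0.26, adjusted p = 0.12). Without WT library 4 it was 0.95 (adjusted p = 0.0020), and no other single library changed the call. WT library 4 also had the highest sum of white adipocyte markers in WT gastrocnemius, 95.75 CPM against 20.52 to 38.32 CPM, and the highest *Angptl4*, a gene induced by fasting, with 13.83 CPM against 3.69 to 6.22 CPM, and their part in its *Pdk4* level was not tested. The coefficient of variation of *Pdk4* was 46.9% in WT and 5.46% in *Mtm1*-/y gastrocnemius.

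*Pdk3*, on chromosome X (93764607 to 93832201), was the lowest kinase in the gastrocnemius, with 34 to 143 reads per library. It stood at 2.27, 1.35, 1.80 and 1.55 CPM in WT and 2.12, 2.31, 4.37 and 3.04 CPM in *Mtm1*-/y gastrocnemius, with library 1 of each genotype in the overlap. The log2FC of 0.74 (SE 0.27) missed the threshold in edgeR (adjusted p = 0.061) and passed it in DESeq2 (adjusted p = 0.043), and edgeR gave 0.042 without *Mtm1*-/y library 1. *Pdk1*, the kinase known as a hypoxia target (chromosome 2, 71873224 to 71903858), ranged from 79.41 to 86.64 CPM in WT and 69.3 to 88.94 CPM in *Mtm1*-/y gastrocnemius, and its log2FC was -0.05 (SE 0.08, adjusted p = 0.65).

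Both phosphatases reverse what the kinases do, *Pdp1* being the calcium-stimulated enzyme of muscle and *Pdp2* the one known from liver and fat. *Pdp1* (chromosome 4, 11958184 to 11966452) stood at 105.3, 118.6, 120.4 and 102.3 CPM in WT and 86.98, 81.29, 69.02 and 103.3 CPM in *Mtm1*-/y gastrocnemius. Library 4 of the *Mtm1*-/y group lay inside the WT range and the other 3 lay below it. The log2FC was -0.41 (SE 0.12, adjusted p = 0.025), and the adjusted p was 0.052 to 0.069 without WT library 2 or 3 or without *Mtm1*-/y library 1 or 2. *Pdp2* (chromosome 8, 104591451 to 104599026) was low, with 4.81 to 7.30 CPM in WT and 3.18 to 5.87 CPM in *Mtm1*-/y gastrocnemius, and its log2FC was -0.35 (SE 0.24, adjusted p = 0.29).

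Counted together, 6 of the 10 genes fell in the gastrocnemius and 0 rose, where 14.9% of the 15456 genes tested fell, 14.1% rose and 29.0% were called in either direction. DESeq2 called the same 6 lower and *Pdk3* higher, and 25.7% of genes in all. In 1 fit of all 30 libraries 2 of the 10 passed, *Pdha1* and *Pdk2*, with *Dlat* at an adjusted p of 0.055 and *Pdhx* at 0.071. The share of all genes called in that fit is not given here, so its lower count cannot be read as particular to these genes. The median log2FC was -0.36 over the 10 genes and 0.02 over all genes tested. None of the 6 reached an absolute log2FC of 1, the added threshold of the study, which 6.63% of all genes passed with the adjusted p. In 5 of the 10, *Pdha1*, *Pdhb*, *Dlat*, *Pdhx* and *Pdk2*, the *Mtm1*-/y libraries lay wholly below the WT libraries, where 30.6% of all genes did not overlap in either direction.

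**Figure D1:**
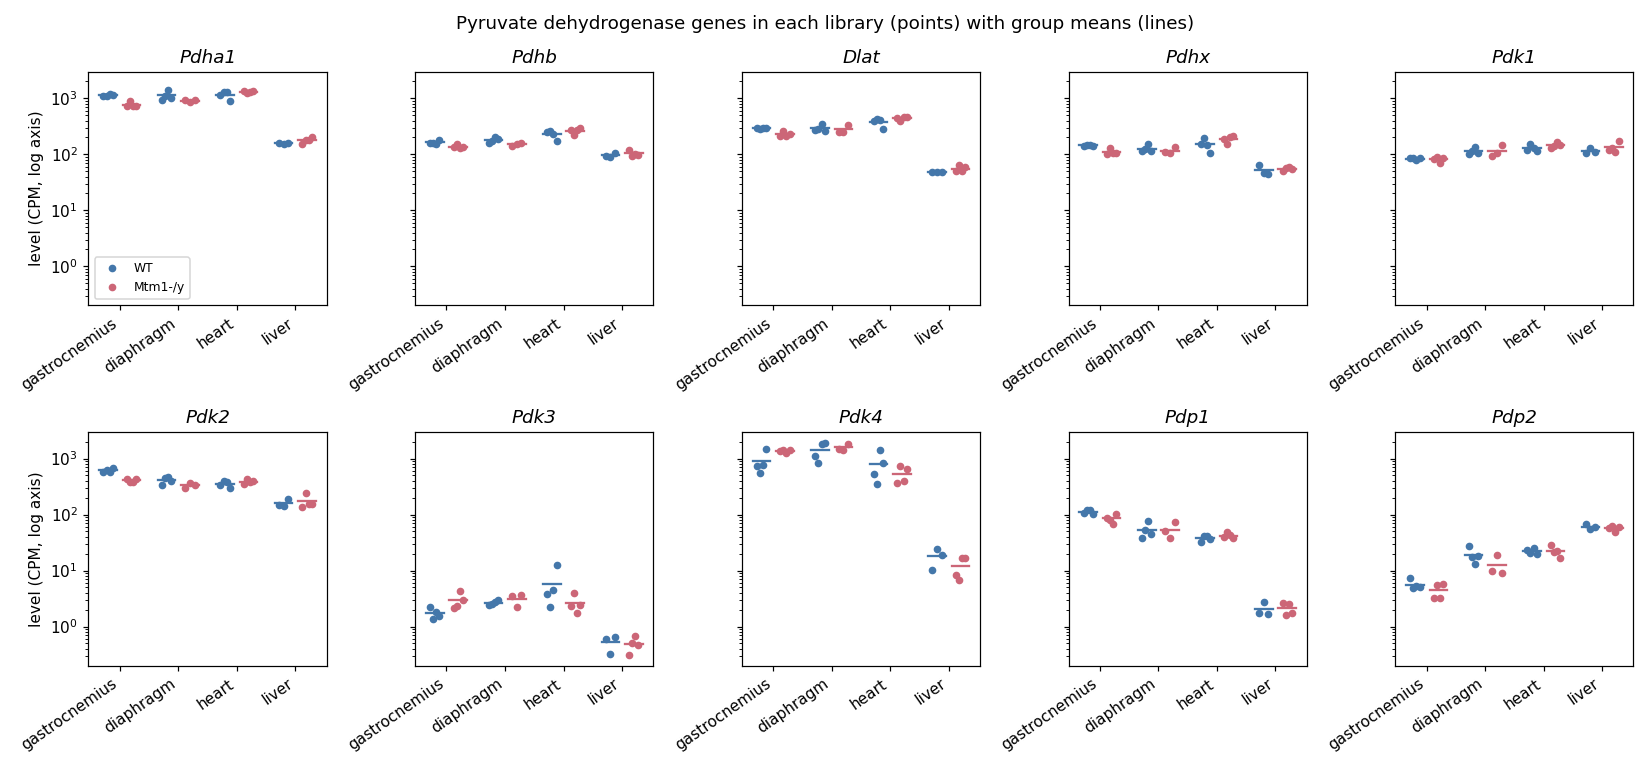
Level of each gene in CPM on a log axis for every library (points) with the group means (lines), for WT and *Mtm1*-/y in 4 tissues. In the gastrocnemius the *Mtm1*-/y points of *Pdha1* (724.4 to 907.8 CPM) and *Pdk2* (378.8 to 437.4 CPM) lie below all WT points, while *Pdk4* has 1 WT point at 1510 CPM above the *Mtm1*-/y points.

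Cell type markers moved with genotype in the same libraries. All 6 fast fibre markers fell in the *Mtm1*-/y gastrocnemius, from a sum of 159800 to 192700 CPM to a sum of 87550 to 112800 CPM, with *Myh4* at 26040 to 37310 CPM. Of the 6 white adipocyte markers 5 rose, from a sum of 20.52 to 95.75 CPM to a sum of 81.32 to 173.5 CPM, and *Adipoq* was detected in every library. All 5 macrophage markers rose, from 19.11 to 32.43 CPM to 59.64 to 76.98 CPM. Of the slow fibre markers 0 of 6 passed, and *Myh7* stood at 473.6 to 1906 CPM in WT and 247.6 to 1050 CPM in *Mtm1*-/y gastrocnemius. With the white adipocyte level as a covariate, an alternative chosen after seeing the data, 1 of the 10 genes passed. It was *Pdk2* with a log2FC of -0.75 (adjusted p = 0.015), whereas *Pdha1* had -0.44 (adjusted p = 0.11) and *Pdk4* -0.04 (adjusted p = 0.96). The share of all genes called in this fit is not given here, and the covariate itself differed by genotype. The lower count therefore cannot be read as particular to these genes. The part of the fibre and macrophage markers was not tested. Of the other lists, 2 of 5 fibroblast markers, 1 of 2 brown adipocyte markers tested and 2 of 3 cardiomyocyte markers tested rose. Of the hepatocyte markers 2 of 8 fell, and 0 of 3 erythroid markers passed. In the other tissues 0 markers of any list passed, beside 0.0119% of all genes in diaphragm, 0.00656% in heart and 0% in liver. Marker levels could still differ there without a call, as the white adipocyte sums in heart did (given below).

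The balance of the 4 kinases was described in RPKM as shares of their sum, without a test. The shares depend on the length used for each gene: per exon union, WT gastrocnemius had a mean of 194.6 RPKM of *Pdk2* and 255.3 of *Pdk4*, and per longest transcript 274 and 257.3. In WT gastrocnemius *Pdk4* made up 52.3%, 43.0%, 52.8% and 65.9% of kinase RPKM, and in *Mtm1*-/y gastrocnemius 72.5%, 75.0%, 73.2% and 72.6%. *Pdk2* made up 32.4% to 53.9% in WT and 22.7% to 25.3% in *Mtm1*-/y gastrocnemius. The ratio of *Pdk4* to *Pdk2* was thus 0.80 to 2.04 in WT and 2.86 to 3.30 in *Mtm1*-/y gastrocnemius. The groups did not overlap even with WT library 4 included, which the choice of length cannot alter because it scales every library alike. *Pdk2* alone did not overlap either, whereas *Pdk4* did, and 30.6% of single genes did not overlap in either direction. No such share over other gene pairs is given here. The kinase sum itself overlapped, at 369.5 to 653 RPKM in WT and 485.8 to 550.5 RPKM in *Mtm1*-/y gastrocnemius, and *Pdk1* and *Pdk3* together stayed a small part of it. Within the complex, the ratio of *Pdhb* to *Pdha1* in RPKM was 0.12 to 0.15 in WT and 0.16 to 0.18 in *Mtm1*-/y gastrocnemius, and *Pdhx* to *Dlat* was 0.60 to 0.65 and 0.57 to 0.61.

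**Figure D2:**
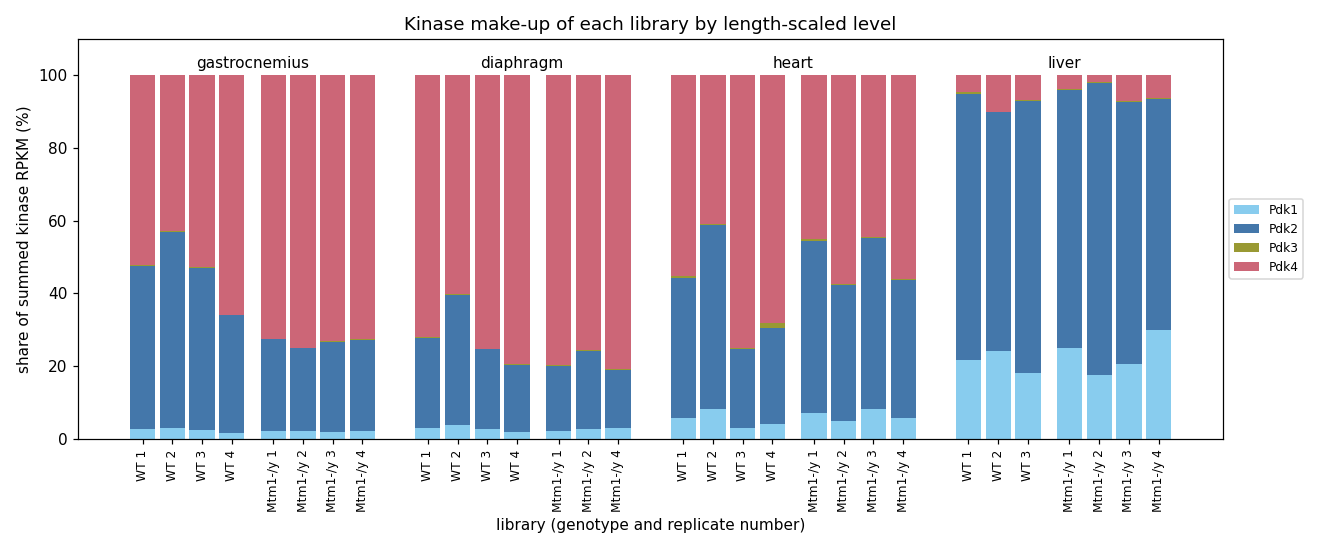
Share of the summed RPKM of the 4 kinases taken by each kinase, as stacked bars from 0 to 100% for every library, ordered by tissue and genotype. *Pdk4* takes 72.5% to 75.0% in the *Mtm1*-/y gastrocnemius and 43.0% to 65.9% in WT, while in liver *Pdk2* takes 63.6% to 80.4%.

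In the diaphragm, 0 of the 10 genes passed the test by edgeR or DESeq2, and 0 had an unadjusted p under 0.05. The edgeR test called 0.0119% of the 16796 genes there, with 10.8% at an unadjusted p under 0.05, and DESeq2 called 2.37%. *Pdha1* stood at 936.2, 1121, 1432 and 1004 CPM in WT and 929.3, 860.9 and 944.7 CPM in *Mtm1*-/y diaphragm, with a log2FC of -0.29 (SE 0.19, adjusted p = 0.67). *Pdk2* stood at 337.7 to 471.8 CPM in WT and 302.5 to 363.1 CPM in *Mtm1*-/y diaphragm, with a log2FC of -0.31 (SE 0.16, adjusted p = 0.58). Both overlapped. *Pdhb* alone did not, at 161.7 to 202.7 CPM in WT and 142.6 to 161.6 CPM in *Mtm1*-/y diaphragm (log2FC -0.24, adjusted p = 0.58), beside 5.26% of all genes lying wholly lower. Biological variation between libraries, as edgeR estimated it over all genes, had a coefficient of 0.394 in the diaphragm against 0.171 in the gastrocnemius, so differences of the size seen in the gastrocnemius were less detectable here.

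*Pdk4* in the diaphragm stood at 1098, 844.3, 1784 and 1918 CPM in WT and 1510, 1407 and 1858 CPM in *Mtm1*-/y, and the groups overlapped throughout (log2FC 0.18, SE 0.33, adjusted p = 0.93). *Pdp2*, the phosphatase most abundant in liver, stood at 27.84, 17.37, 12.92 and 18.52 CPM in WT and 9.63, 18.82 and 8.93 CPM in *Mtm1*-/y diaphragm. The 4 libraries with *Alb* over 10000 CPM were the 4 highest. Among those 4, WT library 1 had the highest *Pdp2*, whereas *Mtm1*-/y library 2 had the highest *Alb*. The part of the hepatocyte transcripts in these levels was not tested. The log2FC of *Pdp2* was -0.61 (SE 0.36, adjusted p = 0.63), and -0.50 without those 4 libraries. Leaving out those 4, or taking the hepatocyte marker level as a covariate, left 0 of the 10 genes called, with *Pdha1* at -0.63 (adjusted p = 0.62) and *Pdk2* at -0.59 (adjusted p = 0.62) without the 4. Both alternatives were chosen after seeing the data, and the first leaves 1 WT library, assumed to vary like the others.

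In the heart, 0 of the 10 genes passed by edgeR or DESeq2, where edgeR called 0.00656% of 15238 genes, 8.88% had an unadjusted p under 0.05, and DESeq2 called 0.453%. *Pdha1* stood at 1145, 1297, 1277 and 905.5 CPM in WT and 1357, 1247, 1308 and 1329 CPM in *Mtm1*-/y heart, with a log2FC of 0.17 (SE 0.12, adjusted p = 0.59). The lowest WT value came from library 4, the one with the highest atrial transcripts. It was also the lowest WT heart library for *Pdhb*, *Dlat*, *Pdhx*, *Pdk1*, *Pdk2* and *Pdp2*. The log2FC lay between 0.13 and 0.31 for the 4 subunits, *Pdk1*, *Pdk2* and *Pdp1*, with adjusted p values of 0.55 to 0.61, and all 10 genes overlapped between the groups, beside 3.98% of all genes that did not.

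*Pdk3* alone had an unadjusted p under 0.05 in the heart. It stood at 3.86, 2.20, 4.59 and 12.77 CPM in WT and 2.32, 3.93, 1.76 and 2.41 CPM in *Mtm1*-/y heart, and library 4 set the WT group apart. The log2FC of -1.18 (SE 0.51, adjusted p = 0.55) was -0.45 without WT library 4 (adjusted p = 0.88). *Pdk4* ranged from 348.3 to 1450 CPM in WT and from 366.7 to 743.1 CPM in *Mtm1*-/y heart, with a log2FC of -0.56 (SE 0.42, adjusted p = 0.60). White adipocyte markers summed to 29.92 to 110.7 CPM in WT and 4.70 to 12.0 CPM in *Mtm1*-/y heart, without overlap. With their level as a covariate, chosen after seeing the data, 0 of the 10 genes passed, as without it. *Pdk3* then had a log2FC of 1.24 (adjusted p = 0.95). Because the marker level itself parts the genotypes, this fit cannot separate the 2, and nothing is concluded from it or from the changed sign.

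In the liver, 0 of the 10 genes passed by edgeR or DESeq2 and 0 had an unadjusted p under 0.05, where edgeR called 0% of 14305 genes, 4.24% had an unadjusted p under 0.05, and DESeq2 called 0.163%. *Dlat* did not overlap, at 48.01, 48.85 and 48.22 CPM in WT and 50.17, 63.21, 49.67 and 59.22 CPM in *Mtm1*-/y liver (log2FC 0.16, SE 0.11, adjusted p = 0.97), beside 3.45% of all genes lying wholly higher. *Pdk4* was low, at 10.36, 24.22 and 18.91 CPM in WT and 8.41, 6.76, 17.04 and 16.97 CPM in *Mtm1*-/y liver, and overlapped (log2FC -0.58, SE 0.37, adjusted p = 0.97). *Pdk3* rested on 7 to 19 reads per liver library and *Pdp1* on 35 to 69, and small differences in them were not detectable at this depth. *Mtm1* itself was not called in liver (log2FC -1.60, adjusted p = 0.37), so a missing call there says little about any of the 10 genes. Biological variation between libraries had a coefficient of 0.229 in liver and 0.208 in heart, against 0.171 in gastrocnemius.

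**Figure D3:**
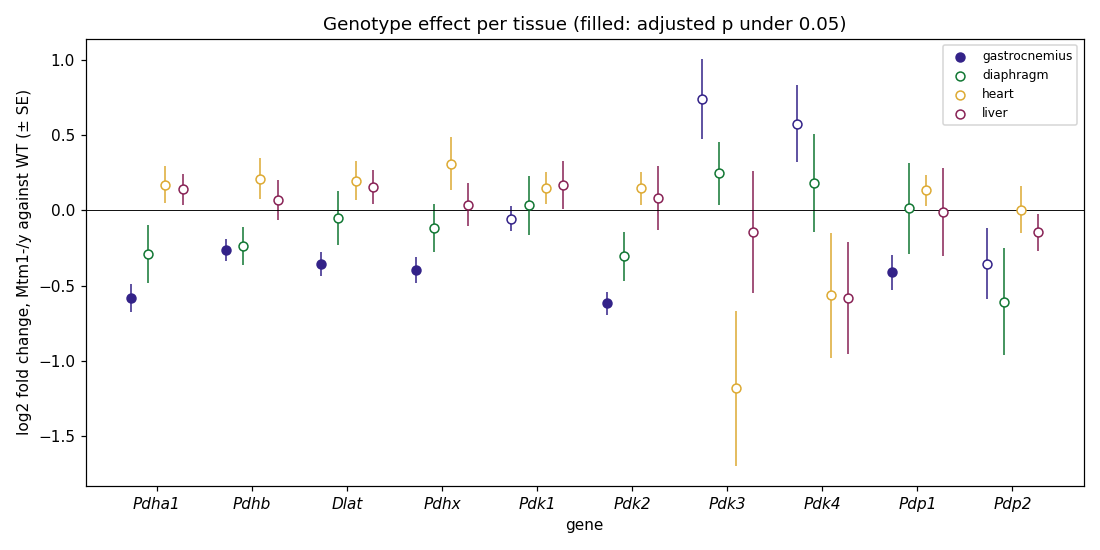
Log2 fold change of *Mtm1*-/y against WT for each gene, with bars of 1 SE, in the 4 tissues, where filled symbols have an adjusted p under 0.05. The 6 filled symbols are *Pdha1*, *Pdhb*, *Dlat*, *Pdhx*, *Pdk2* and *Pdp1* in the gastrocnemius, from -0.62 to -0.27, and no symbol of another tissue is filled.

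Whether the genotype effect differed between tissues was tested as the difference from the gastrocnemius. The 3 differences share the 8 gastrocnemius libraries and are given side by side. For heart minus gastrocnemius 7 of the 10 genes passed, beside 19.8% of 16627 genes (9.94% higher and 9.89% lower). The difference was 0.77 (SE 0.15, adjusted p = 0.0037) for *Pdha1*, 0.49 (SE 0.16, adjusted p = 0.044) for *Pdhb*, 0.57 (SE 0.16, adjusted p = 0.021) for *Dlat* and 0.72 (SE 0.21, adjusted p = 0.025) for *Pdhx*. For *Pdk2* it was 0.78 (SE 0.14, adjusted p = 0.0017) and for *Pdp1* 0.56 (SE 0.17, adjusted p = 0.030), and the 1 negative difference was that of *Pdk3*, -1.90 (SE 0.62, adjusted p = 0.041). All 4 subunits of the complex, 1 kinase and 1 phosphatase thus had a lower *Mtm1*-/y to WT ratio in gastrocnemius than in heart.

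Leaving out 1 library gave 3 to 7 of these calls. With an absolute difference over 1 required as well, chosen after seeing the data, 1 remained, *Pdk3*, beside 7.73% of all genes. *Pdha1*, *Dlat* and *Pdk2* passed under all 16 omissions, whereas *Pdhx* lost its call under 3 (*Mtm1*-/y gastrocnemius 1, *Mtm1*-/y heart 3 or 4), *Pdp1* under 7, *Pdk3* under 9 and *Pdhb* under 13. Without WT heart library 4 the difference of *Pdk3* was -1.19 (adjusted p = 0.077). *Pdk4* had a difference of -1.12 (SE 0.53, adjusted p = 0.15) and did not pass.

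For liver minus gastrocnemius 2 of the 10 genes passed, beside 6.34% of 17179 genes (3.63% higher), both higher: *Pdha1* with 0.76 (SE 0.16, adjusted p = 0.013) and *Dlat* with 0.54 (SE 0.14, adjusted p = 0.034). *Dlat* lost its call under 11 of 15 omissions, at adjusted p values of 0.053 to 0.076, and *Pdha1* under none, and neither exceeded an absolute difference of 1, where 2.52% of genes did and passed. The difference of 0.73 (SE 0.24) for *Pdk2* missed the threshold in edgeR (adjusted p = 0.083) and passed it in DESeq2 (adjusted p = 0.034). For diaphragm minus gastrocnemius 0 of the 10 passed by edgeR, with 0 at an unadjusted p under 0.05 and 0 by DESeq2, beside 0.280% of 17509 genes called by edgeR, 12.8% at an unadjusted p under 0.05 and 2.04% called by DESeq2. The difference for *Pdha1* was 0.28 (SE 0.19, adjusted p = 0.56) and for *Pdk2* 0.30 (SE 0.16, adjusted p = 0.47), so the falls of the gastrocnemius were not shown to be absent from the diaphragm. Without the 4 diaphragm libraries rich in *Alb* these were -0.04 and 0.04 (adjusted p = 0.996 and 0.995).

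**Figure D4:**
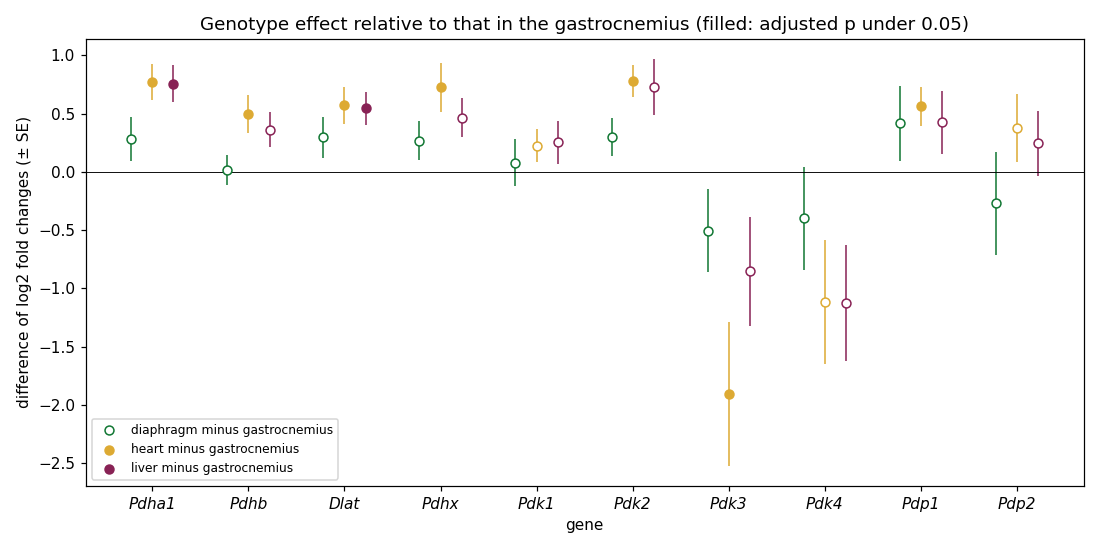
Difference between the log2 fold change in diaphragm, heart or liver and that in gastrocnemius for each gene, with bars of 1 SE and filled symbols at an adjusted p under 0.05. Heart minus gastrocnemius has 7 filled symbols, 6 between 0.49 and 0.78 and *Pdk3* at -1.90, and diaphragm minus gastrocnemius has none.

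The WT libraries alone give each gene's level across tissues. In diaphragm, WT library 3 had *Alb* at 252 CPM and the other WT libraries had over 10000 CPM. Library 3 was the highest WT diaphragm library for *Pdha1*, *Pdhb*, *Dlat*, *Pdhx*, *Pdk1*, *Pdk2* and *Pdp1*, and the lowest for *Pdp2*. The part of the hepatocyte transcripts in the diaphragm means was not tested. The 4 subunits were lowest in liver: *Pdha1* had 1156 ± 180.2 CPM (SD, n = 4) in heart, 1146 ± 45.3 in gastrocnemius, 1123 ± 220 in diaphragm and 156.4 ± 2.80 (n = 3) in liver. The 3 muscles did not differ past the threshold for *Pdha1*, and liver lay 2.84 below diaphragm on the log2 scale (SE 0.18, adjusted p = 5.47e-09). *Dlat* followed with 379 ± 64.2 CPM in heart, 292.2 ± 41.7 in diaphragm, 292 ± 4.85 in gastrocnemius and 48.36 ± 0.44 in liver, and *Pdhb* with 228.1 ± 39.6, 180.8 ± 17.4, 163.3 ± 9.90 and 96.19 ± 9.51 CPM in the same order. For both, heart exceeded diaphragm (*Dlat* by 0.38, adjusted p = 0.020, *Pdhb* by 0.34, adjusted p = 0.035), diaphragm and gastrocnemius did not differ past the threshold, and liver was lowest. *Pdhx* was 151.4 ± 38.5 CPM in heart, 143.8 ± 4.46 in gastrocnemius, 126.3 ± 18.8 in diaphragm and 52.42 ± 11.5 in liver, with no difference past the threshold among the muscles.

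In RPKM, which allows genes to be compared, *Pdha1* exceeded *Pdhb* in every library. The ratio of *Pdhb* to *Pdha1* was 0.12 to 0.21 in the WT libraries of the 3 muscles and 0.55 to 0.66 in WT liver, and that of *Pdhx* to *Dlat* was 0.44 to 0.65 and 1.15 to 1.70. Liver thus held a subunit balance unlike that of muscle for these pairs, whereas *Dlat* to *Pdha1* was 0.19 to 0.26 in the muscles and 0.23 to 0.24 in liver.

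Among the kinases, *Pdk4* was highest in diaphragm with 1411 ± 521 CPM, then 896.5 ± 420 in gastrocnemius and 793.8 ± 484 in heart, and 17.83 ± 6.99 CPM in liver. These 3 muscles did not differ past the threshold, and heart lay 5.48 above liver on the log2 scale (SE 0.61, adjusted p = 1.44e-06). *Pdk4* was also the most variable kinase after *Pdk3* in WT heart, with a coefficient of variation of 60.9%, and the most variable of all 10 genes in WT diaphragm (36.9%) and WT liver (39.2%). *Pdk2* ordered otherwise, with 615.4 ± 42.1 CPM in gastrocnemius, 416 ± 60.1 in diaphragm, 349.1 ± 43.7 in heart and 158.7 ± 25.7 in liver. Gastrocnemius exceeded diaphragm (by 0.61, adjusted p = 0.0019), diaphragm and heart did not differ past the threshold, and heart exceeded liver (by 1.14, adjusted p = 9.91e-06).

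*Pdk1* differed least between tissues, with 129.7 ± 16.8 CPM in heart, 115.7 ± 11.5 in liver, 114 ± 16.1 in diaphragm and 83.93 ± 3.16 in gastrocnemius, and of these neighbours only diaphragm and gastrocnemius differed past the threshold (by 0.39, adjusted p = 0.0075). *Pdk3* was 5.86 ± 4.72 CPM in heart, 2.65 ± 0.27 in diaphragm, 1.74 ± 0.40 in gastrocnemius and 0.52 ± 0.17 in liver. Its step from heart to diaphragm (1.15, adjusted p = 0.030) was 0.36 without WT heart library 4 (adjusted p = 0.26). As shares of kinase RPKM, *Pdk4* took 60.2% to 79.4% in WT diaphragm and 40.8% to 74.9% in WT heart, whereas in WT liver *Pdk2* took 65.7% to 74.8%, *Pdk1* 18.1% to 24.1% and *Pdk4* 4.70% to 10.1%.

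The phosphatases ran in opposite orders. *Pdp1* was 111.6 ± 9.18 CPM in gastrocnemius, 53.61 ± 17.1 in diaphragm, 38.15 ± 4.83 in heart and 2.09 ± 0.61 in liver, and each step passed (1.11, adjusted p = 0.00023, then 0.48, adjusted p = 0.045, then 4.19, adjusted p = 2.96e-09). The middle step missed the threshold in DESeq2 (adjusted p = 0.059), with its size factors in edgeR (adjusted p = 0.063) and without the filter on low counts (adjusted p = 0.059). *Pdp2* was 60.98 ± 6.38 CPM in liver, 22.17 ± 2.56 in heart, 19.16 ± 6.27 in diaphragm and 5.62 ± 1.14 in gastrocnemius, and of its steps only heart to diaphragm did not pass (0.22, adjusted p = 0.37). *Pdp1* took 94.8% to 96.9% of phosphatase RPKM in WT gastrocnemius and 3.20% to 5.99% in WT liver. The diaphragm value of *Pdp2* comes from libraries with the hepatocyte transcripts described above. WT diaphragm library 3, with *Alb* at 252 CPM, had 12.92 CPM of *Pdp2*, against 4.81 to 7.30 CPM in WT gastrocnemius. *Mtm1*-/y diaphragm libraries 1 and 4, with *Alb* at 1491 and 480.3 CPM, had 9.6 and 8.9 CPM of *Pdp2*. *Mtm1*-/y gastrocnemius had 3.2 to 5.9 CPM. The part of the hepatocyte transcripts in the diaphragm level of *Pdp2* was not tested.

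Over the 6 WT contrasts, 4 of the 10 genes passed between diaphragm and gastrocnemius, 2 higher and 2 lower in diaphragm, where 54.4% of 17725 genes passed (30.6% higher, 23.8% lower). Between heart and gastrocnemius 7 passed, 5 higher and 2 lower in heart (61.3% of genes, 32.6% higher, 28.7% lower). Between heart and diaphragm 4 passed, 3 higher and 1 lower in heart (51.7% of genes, 22.1% higher, 29.6% lower). Liver was lower for 8 genes in each of its contrasts, with 10 of 10 called against gastrocnemius (79.5% of genes, 37.4% higher, 42.1% lower), 9 against diaphragm (76.1%, 35.5% higher, 40.6% lower) and 9 against heart (76.4%, 35.6% higher, 40.8% lower). With an absolute log2 difference over 1 required as well, 2 passed between diaphragm and gastrocnemius (26.8% of genes), 3 between heart and gastrocnemius (32.0%) and 1 between heart and diaphragm (27.0%). Without the 3 WT diaphragm libraries with *Alb* over 10000 CPM, 2 genes passed between diaphragm and gastrocnemius (*Pdk1* 0.70 and *Pdp2* 1.20) and 2 between heart and diaphragm (*Pdp1* -1.05 and *Pdp2* 0.76), so the steps of *Pdk2* and *Pdp1* from gastrocnemius and of *Pdhb*, *Dlat* and *Pdk3* from heart lost their calls. That alternative was chosen after seeing the data and leaves 1 diaphragm library, assumed to vary like the libraries of the other tissues. The smallest calls also moved with single libraries: heart against diaphragm lost *Pdp1* under 10 of 15 omissions, *Pdhb* under 6 and *Dlat* and *Pdk3* under 5, and heart against gastrocnemius lost *Dlat* under 6.

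Genes around the complex were read from lists of pathway members, beside the 14.1% of all genes that rose and the 14.9% that fell in the gastrocnemius. Of 7 genes for the E3 subunit, the phosphatase regulator, lipoylation and cofactor supply, 4 fell and 0 rose in the *Mtm1*-/y gastrocnemius. *Pdpr*, the regulatory subunit of the *Pdp1* phosphatase, fell from 84.29 ± 11.3 to 54.74 ± 4.84 CPM (log2FC -0.64, adjusted p = 0.0021). *Dld*, the E3 subunit shared with other dehydrogenases, fell from 424.4 ± 17.2 to 316.4 ± 30.4 CPM (log2FC -0.44, adjusted p = 0.0035), and *Lias*, lipoyl synthase, had a log2FC of -0.27 (adjusted p = 0.015). With *Dld*, every catalytic and core subunit of the complex had passed with a lower level in *Mtm1*-/y gastrocnemius. The list's median log2FC was -0.27.

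Of 15 genes tested for pyruvate supply and other uses, 9 fell and 1 rose, with a median of -0.47. *Slc16a3*, the lactate exporter of fast fibres, had a log2FC of -0.96 (adjusted p = 0.00026), *Me1*, cytosolic malic enzyme, -0.88 (adjusted p = 0.00026), *Pcx*, pyruvate carboxylase, -0.69 (adjusted p = 0.00073) and *Me3*, a mitochondrial malic enzyme, -0.60 (adjusted p = 0.00037). The gene that rose was *Me2*, the NAD-dependent mitochondrial malic enzyme, from 3.25 to 6.57 CPM (log2FC 1.00, adjusted p = 0.0014), named after its value was seen. The other 2-oxoacid dehydrogenases, sister complexes built on the same plan, had 7 of 8 genes lower and 0 higher with a median of -0.39, among them *Dbt*, the E2 of the branched-chain complex (log2FC -0.49, adjusted p = 0.0018), *Bckdhb*, its E1 beta subunit (log2FC -0.45, adjusted p = 0.0029), *Bckdk*, its kinase (log2FC -0.38, adjusted p = 0.0038), and *Ppm1k*, its phosphatase (log2FC -0.60, adjusted p = 0.00057).

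Of 13 transcription factors and coactivators known to act on Pdk genes, 5 fell and 1 rose, with a median of -0.28. *Ppara*, the fatty acid receptor, fell from 8.30 ± 0.99 to 4.51 ± 0.60 CPM (log2FC -0.90, adjusted p = 0.0011), and *Ppargc1a*, the mitochondrial coactivator, from 35.77 ± 2.42 to 23.86 ± 4.28 CPM (log2FC -0.60, adjusted p = 0.0064). The thyroid hormone receptors *Thra* (log2FC -0.43, adjusted p = 0.00068) and *Thrb* (log2FC -0.42, adjusted p = 0.0056) fell as well. Named after their values were seen, *Nr3c1*, the glucocorticoid receptor, fell (log2FC -0.36, adjusted p = 0.015) and *Hif1a* rose (log2FC 0.34, adjusted p = 0.015).

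Of 18 fasting, PPAR and glucocorticoid responsive genes, 4 rose and 0 fell, with a median of -0.01, and fewer than the 29.0% of all genes called in either direction passed. *Ucp2*, a mitochondrial carrier, stood at 42.09, 27.41, 32.43 and 39.34 CPM in WT and 115, 100.7, 91.11 and 142.9 CPM in *Mtm1*-/y gastrocnemius (log2FC 1.65, adjusted p = 0.00019). *Angptl4*, a lipase inhibitor, rose to 19.97 to 33.08 CPM (log2FC 1.70, adjusted p = 0.0054). *Plin2*, a lipid droplet coat protein (log2FC 0.53, adjusted p = 0.0059), and *Acot2*, a mitochondrial thioesterase (log2FC 0.58, adjusted p = 0.016), rose too. Adipocytes and macrophages also express some of these genes, and the markers of both rose in the same libraries, but their part in these rises was not tested.

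Of 11 hypoxia responsive genes 2 rose and 3 fell, with a median of -0.07, beside the 14.1% and 14.9% of all genes. *Egln3* rose (log2FC 0.93, adjusted p = 0.0034), as did *Slc2a1*, named after its value was seen (log2FC 0.61, adjusted p = 0.0099), and *Vegfa* (log2FC -0.52, adjusted p = 0.0053), *Egln1* (log2FC -0.46, adjusted p = 0.0026) and *Pgk1* (log2FC -0.62, adjusted p = 0.0077) fell. In the diaphragm, heart and liver 0 genes of these 6 lists passed, beside 0.0119%, 0.00656% and 0% of all genes.

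Genes with the pattern most like that of *Pdha1* were found by the root mean square difference of centred log2 CPM over the 8 group means, among 10980 genes of at least 5 CPM. The nearest was *Cs*, citrate synthase, the next enzyme on the path of acetyl-CoA, at 0.12 log2 units, followed by *Mgst3* (0.13), *Tspan2* (0.13), *Rab3a* (0.16) and *Mterf2* (0.16). The mean level of *Cs* in WT and in *Mtm1*-/y was 1205 and 881.2 CPM in gastrocnemius, 1430 and 1719 CPM in heart, and 185.4 and 204.1 CPM in liver. For *Pdk4* the nearest genes were less close: *Gprc5b* (0.31), *Twf2* (0.35), *Sgcd* (0.36), *Nol3* (0.37) and *Insyn1* (0.41). *Gprc5b* had means of 53.93 and 73.74 CPM in WT and *Mtm1*-/y gastrocnemius and 0.59 and 0.99 CPM in liver. The 8 groups differ mainly by tissue, which shapes both rankings.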

How the data were processed

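The deposited values are raw read counts per gene for 30 libraries, made by the authors from polyA RNA (350 ng, TruSeq Stranded mRNA, single reads of 50 bases). Per the labels and the study's methods, reads were trimmed with cutadapt 1.10 (Phred 20, at least 40 bases), aligned to mm10 with STAR 2.5.3a and counted in union mode, uniquely aligned reads only, with HTSeq 0.6.1p1 on Ensembl release 96. Each library column was matched to its sample by title. The 10 genes and the gene lists were chosen with earlier results of these data known.

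From these counts, edgeR 4.0.16 in R 4.3.3 fitted each tissue alone for genotype, the 15 WT libraries together for tissue, and pairs of tissues for the difference of genotype effects (TMM factors, filterByExpr at a count minimum of 10). Levels are CPM with TMM factors over all libraries, and RPKM uses the union of exons in GENCODE M21. SE is the coefficient over the square root of F. List genes were named by the 4 smallest p among those that passed in the gastrocnemius, and pattern genes by the 5 smallest distances. A gene named by this rule is not reported here. Reads give counting error beside the spread between libraries, and precision is lowest for *Pdk3*. Alternatives were DESeq2 1.42.0, edgeR with its size factors, all genes with at least 1 count, a fit of all libraries, a replicate block, the fold change threshold, the longest transcript as length, leaving out each library, and 5 added after seeing the data. No 2 libraries of a group agreed within sampling noise. Protein sequences were not used here.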

Additional observations from a re-analysis of the deposited data

Results flagged for a closer look

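*Pdha1* in the *Mtm1*-/y gastrocnemius had 1 library apart from the rest: library 2 stood at 907.8 CPM and the other 3 at 724.4 to 740.1 CPM, a gap of 0.91 of the group's range. The same library was the highest of its group for *Pdhb*, *Dlat*, *Pdhx*, *Pdk1* and *Pdk4*, and not for *Pdk2*, *Pdk3*, *Pdp1* and *Pdp2*. Of the groups of 4 libraries checked for the 10 genes there were 60, and chance alone takes about 1 of 20 groups past the limit used, Dixon's critical value. The 60 groups reuse the same libraries for each gene, so they are not independent.

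The genotype effect differed between heart and gastrocnemius by an interaction test for 7 genes, with heart minus gastrocnemius differences of 0.77 for *Pdha1*, 0.49 for *Pdhb*, 0.57 for *Dlat*, 0.72 for *Pdhx*, 0.78 for *Pdk2*, 0.56 for *Pdp1* and -1.90 for *Pdk3*. It differed between liver and gastrocnemius for *Pdha1* (0.76) and *Dlat* (0.54). These differences share the gastrocnemius libraries, in which fast fibre markers fell and white adipocyte and macrophage markers rose. Atrial transcripts were lower in most *Mtm1*-/y than in WT heart libraries. The part of those markers and transcripts in the differences was not tested.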

How the results depend on the processing

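No called result changed direction under any alternative. In the gastrocnemius 5 to 6 of the 10 genes passed when 1 library was left out and 2 in a fit of all 30 libraries. With the white adipocyte level as a covariate 1 passed, and 0 with the fold change threshold added. The shares of all genes called with the covariate and in the fit of all 30 libraries are not given here. No cause of these losses was tested beyond the fold change threshold itself. With the fold change threshold, 2 genes passed in WT diaphragm against gastrocnemius, 3 in WT heart against gastrocnemius, 1 in WT heart against diaphragm, 1 in heart minus gastrocnemius and 0 in liver minus gastrocnemius. Without the 3 WT diaphragm libraries over 10000 CPM of *Alb*, 2 passed in each WT contrast of the diaphragm with gastrocnemius and with heart. Without the filter on low counts, 2 passed in WT heart against diaphragm and 1 in liver minus gastrocnemius. Leaving out 1 library gave 4 to 5 genes in WT diaphragm against gastrocnemius, 6 to 7 in WT heart against gastrocnemius, 1 to 4 in WT heart against diaphragm, 3 to 7 in heart minus gastrocnemius and 1 to 2 in liver minus gastrocnemius.

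No source used here says that a number marks a mouse shared by tissues, and the shared replicate numbers did not pair the libraries by the rule used, a correlation above 0.1 in every pair. That rule is strict and the group means rest on few libraries, so failing it does not show that libraries of the same number were unrelated. The counts expected by chance are not given here. Of 14 same-numbered WT and *Mtm1*-/y libraries, 7 had deviations from their group means that correlated above 0.1 (-0.80 to 0.67), and 5 correlated best with their own number. Between tissues, 6 of 21 same-numbered WT pairs (-0.25 to 0.45) and 5 of 21 *Mtm1*-/y pairs (-0.34 to 0.25) exceeded 0.1, among them WT number 1 in gastrocnemius and diaphragm (0.45), gastrocnemius and heart (0.33) and diaphragm and heart (0.39). With the replicate number as a block, 5 genes passed in the gastrocnemius (*Pdp1* at an adjusted p of 0.056), 2 in heart minus gastrocnemius (*Pdha1* and *Pdk2*, with *Dlat* at 0.063), 0 in liver minus gastrocnemius (*Pdha1* at 0.058) and 3 in WT heart against diaphragm, and the counts of the other comparisons were the same. RPKM per longest transcript were higher for the subunits, *Pdk1* and *Pdk2*, for example 402.4 for *Pdha1* in WT gastrocnemius. Depth limits *Pdk3* in liver, with 7 to 19 reads.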
